A study of Mus musculus with 5 samples.

Results

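The genes described here make up the glutathione, peroxiredoxin and thioredoxin systems of the mouse, together with the superoxide dismutases, catalase, the quinone reductases, the heme oxygenases and the transcription factor NRF2. Members were found by their symbols. The symbols matched were those of the glutathione transferases (Gsta, Gstk, Gstm, Gsto, Gstp, Gstt, Gstz and Mgst), Gpx1 to Gpx8, Prdx1 to Prdx6, Sod1 to Sod3, *Cat*, *Gclc*, *Gclm*, *Gss*, *Gsr*, the thioredoxins and their reductases, *Nqo1*, *Nqo2*, *Hmox1*, *Hmox2*, *Srxn1* and *Nfe2l2*. The rule found 58 of the 23903 gene symbols of the table, listed with 75 transcripts, and each symbol was represented by its transcript of highest mean. Of these 58 genes, 52 reached 1 FPKM in at least 2 libraries.

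RNA was sequenced from 5 libraries of adrenal cells grown as spheres in serum-free medium. Adrenal cells were separated by panning on an antibody against L1CAM, an adhesion molecule of chromaffin cells, into L1CAM-positive cells (2 libraries) and the L1CAM-negative remainder (3 libraries). Number 25 stands for 1 library of each fraction from a mix of P0 and P2 mice after 8 days of culture, and number 31 for 1 library of each fraction from such a mix after 5 days. Number 28 is an L1CAM-negative library from P5 mice after 8 days. All labels give the strain C57/bl6, whereas the methods describe OF-1 mice, and no transgene or treatment is named beyond the culture medium with its N2 and B27 supplements, EGF and FGF. The labels do not say whether libraries of the same age stem from separate animals, so the p-values rest on a spread that may be technical in part. Within the fractions this spread also holds the culture period, and in the L1CAM-negative fraction the age of number 28. Values are log2(FPKM + 2), quantile normalized between samples by the authors, where FPKM is the number of fragments per kilobase of transcript, scaled to the reads of the library. The added 2 was inferred from the lowest value of the table, which is exactly 1, and differences of genes with low FPKM are understated on this scale. Sequencing depth is unknown for all 5 libraries. The log2 ratio used throughout is the mean of the L1CAM-positive minus that of the L1CAM-negative libraries in these units (the log2 fold change of the plots).

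Markers of chromaffin cells and glia stood higher in L1CAM-positive spheres and those of the other adrenal cell types lower, where the limma test described below called 6 of 8 chromaffin, 4 of 5 glial, 7 of 8 cortex, 3 of 6 fibroblast, 3 of 6 endothelial and 1 of 6 macrophage markers. The summed FPKM of 8 chromaffin markers were 8465 and 6697 in L1CAM-positive spheres and between 126.1 and 539.6 in L1CAM-negative spheres. The cortex sum over 8 markers was 1819 and 1910 in L1CAM-positive spheres and between 8088 and 12920 in L1CAM-negative spheres, so cortical transcripts were read in both fractions. The sums over 6 fibroblast and capsule markers (827.0 and 870.3 against 3939 to 5756), 6 endothelial markers (35.69 and 36.55 against 193.2 to 368.6) and 6 macrophage markers (22.44 and 31.83 against 120.9 to 417.2) were also lower in L1CAM-positive spheres. That of 5 glial markers was higher (56.59 and 122.0 against 3.359 to 10.41), and 6 erythroid markers summed to 1.743 FPKM or less in every library. Apart from the erythroid ones, no marker was listed at 0 in any library. Fewer cells of a type and less RNA per cell cannot be told apart in such bulk samples, and the part of these cell types in the differences below was not tested.

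Glutathione is a small thiol made from glutamate, cysteine and glycine. Glutathione peroxidases use it to reduce peroxides, glutathione transferases attach it to reactive molecules, and glutathione reductase regenerates it with NADPH. Peroxiredoxins reduce peroxides through thioredoxin, which is kept reduced by thioredoxin reductases. NRF2 is the transcription factor that induces many of these genes under oxidative stress. In the adrenal, the cortex makes reactive oxygen species during steroid synthesis by mitochondrial cytochromes P450, and chromaffin cells produce hydrogen peroxide when monoamine oxidase degrades catecholamines.

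Some of these enzymes are selenoproteins, in which a TGA inside the reading frame is read as selenocysteine in place of a stop. Such a codon was found in the coding sequences of 7 of the 58 members, and GENCODE M21 marks 1 selenocysteine in each of them. These genes are *Gpx1*, *Gpx2*, *Gpx3*, *Gpx4*, *Txnrd1*, *Txnrd2* and *Txnrd3*. The sequences that follow are coding windows of GRCm38 (GENCODE M21 transcripts), 5′ to 3′, shown because they separate the peroxidases that use selenium from those that do not. The capitals mark the codon of the active-site residue, with up to 21 coding bases on each side.
Gpx1: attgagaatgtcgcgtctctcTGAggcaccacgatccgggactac
Gpx3: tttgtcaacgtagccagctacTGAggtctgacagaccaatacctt
Gpx4: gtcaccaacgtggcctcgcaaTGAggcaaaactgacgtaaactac
Gpx7: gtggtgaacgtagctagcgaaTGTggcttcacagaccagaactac
Gpx8: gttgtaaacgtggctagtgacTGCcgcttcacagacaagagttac
In *Gpx7* and *Gpx8*, whose products reside in the endoplasmic reticulum, the same place holds a cysteine codon, TGT at codon 56 and TGC at codon 79. It is TGA at codon 47 of *Gpx1* and at codon 73 of *Gpx3* and *Gpx4*. In the thioredoxin reductases the TGA lies at the very end of the reading frame, 2 codons (the stop included) before it closes.
Txnrd1: gacatcctccagtctggctgcTGAggttaa
Txnrd2: gagcctactgtgactggttgcTGAggctaa
Txnrd3: gacattactcagaaaggctgcTGAggctag

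More members were lower than higher in the L1CAM-positive fraction. Of the 58 members, 21 were lower (36.2%) and 4 were higher (6.9%) at an adjusted p under 0.05 in limma, adjusted by Benjamini-Hochberg over all 23903 genes. Over all genes tested, 10.0% were lower and 11.6% were higher. The median log2 ratio was -0.52 for the members and 0.00 for all genes. Because 52 members are expressed, the comparison among genes at 1 FPKM or more in 2 or more libraries is also given. There, 31 of 52 members were lower (59.6%) and 3 were higher (5.8%), against 22.4% and 21.2% of 14091 genes. Some of these genes met the filter only through the fraction in which they were higher. Among the members counted, *Gstt3* reached 1 FPKM only in L1CAM-negative libraries and *Gstm6* only in L1CAM-positive ones. The libraries of the fractions did not overlap in 44 members (75.9%), against 48.9% of all genes. In 37 members both L1CAM-positive libraries lay below all L1CAM-negative ones, and in 7 they lay above them, where 26.0% and 23.0% of all genes did so. An exact permutation test of 2 against 3 libraries cannot give a p below 0.1.
The count of lower members depended on single libraries. It was 6 and 8 when L1CAM-positive number 25 or 31 was left out (2.18% and 2.52% of all genes were then lower), 15 and 11 when it was the L1CAM-negative library of that number (4.2% and 4.86%), and 23 when it was number 28 (12.3%). In the same order, 4, 3, 1, 1 and 4 members were higher, against 5.81%, 6.0%, 5.44%, 6.11% and 11.7% of all genes. With the culture period as a term, 12 members were lower and 4 higher, against 5.33% and 7.23% of all genes. With the robust form of the limma variance estimate, 4 were lower and 0 higher (31 members at an unadjusted p under 0.05), against 1.47% and 3.33% of all genes. With the library number as a block, limma called none of the 23903 genes (39 members and 8417 genes at an unadjusted p under 0.05). All 25 called members kept their direction in all of the 17 alternatives in which they were tested, *Gpx2* being left out by 1 filter. The fractions did not overlap in any of these 25 genes. Leaving out a library or changing the variance model could therefore not reverse the direction. None of the 25 passed the test in every alternative. Of these 25, *Gpx1*, *Gpx4*, *Gpx8*, *Gstm2*, *Gsto1*, *Txnrd2* and *Gstm6* passed in every fit that left out 1 library.

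**Figure D1:**
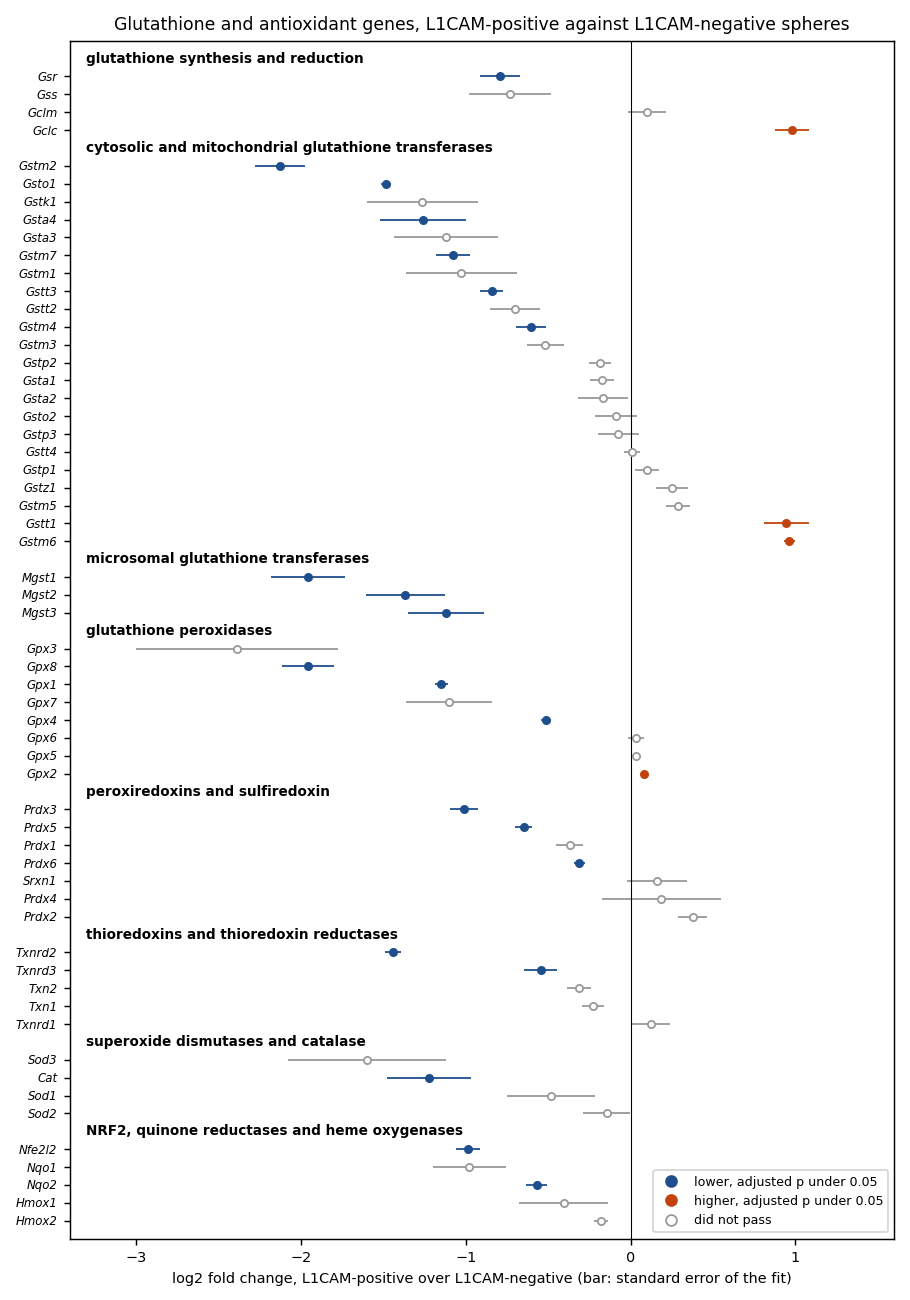
Log2 ratio of each of the 58 members by class, L1CAM-positive over L1CAM-negative spheres, with the SE (standard error) of the limma fit as the bar and filled points for genes past the test. The 21 lower members run from -2.13 (*Gstm2*) to -0.31 (*Prdx6*), and of the 4 higher ones *Gclc*, *Gstm6* and *Gstt1* lie near 1.

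Of the 4 genes of glutathione synthesis and reduction, 1 was higher in L1CAM-positive spheres, 1 was lower and 2 did not pass. *Gclc*, the catalytic subunit of glutamate-cysteine ligase, the enzyme of the first step of synthesis (NM_010295, chromosome 9 of GRCm38.p6 from 77754535 to 77794489), was read at 5.79 and 5.51 in L1CAM-positive numbers 25 and 31. It was at 4.66, 4.62 and 4.73 in L1CAM-negative numbers 25, 31 and 28, which all lay below both L1CAM-positive libraries. Its log2 ratio was 0.98 (SE 0.10, adjusted p = 0.0121, limma), and it passed without either L1CAM-positive library or number 28 but not without L1CAM-negative number 25 or 31. *Gclm*, the modifier subunit of the same enzyme, was at 4.96 and 4.91 against 4.80, 4.70 and 5.02, so that the fractions overlapped (log2 ratio 0.10, SE 0.12, adjusted p = 0.666, limma). *Gss*, glutathione synthetase of the next step, was lower in both L1CAM-positive libraries (4.30 and 3.95 against 4.80, 4.56 and 5.20) but did not pass (adjusted p = 0.139, limma). *Gsr*, glutathione reductase (chromosome 8 from 33653238 to 33698162), was at 4.01 and 4.19 in L1CAM-positive spheres against 4.81, 4.80 and 5.07. Its log2 ratio of -0.79 (SE 0.12) passed the test (adjusted p = 0.0250, limma), though without 1 library only when number 28 was the one left out. Summed over the 4 genes, the FPKM were 114.4 and 101.5 in L1CAM-positive spheres and 100.9, 94.06 and 121.5 in L1CAM-negative spheres, 2 overlapping ranges.

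The glutathione transferases held members that changed in opposite directions. Of the 22 soluble and mitochondrial ones, 6 were lower, 2 were higher and 14 did not pass, and 3 of the 22 (*Gsta1*, *Gstp3* and *Gstt4*) did not reach 1 FPKM in 2 libraries. *Gstm2*, a mu-class transferase (NM_008183, chromosome 3 from 107981702 to 107986420), had the largest log2 ratio in size among members past the test on this scale, but with a pseudocount of 0.1 in place of 2 it was at -2.23 and the weakly expressed *Gstm6* (2.71) and *Gstt3* (-2.30) exceeded it. It was at 4.43 and 4.30 in L1CAM-positive spheres and at 6.74, 6.39 and 6.35 in L1CAM-negative ones, which gave a log2 ratio of -2.13 (SE 0.15, adjusted p = 0.00657, limma). *Gsto1*, an omega-class transferase with thiol transfer activity (NM_010362, chromosome 19 from 47854973 to 47864790), varied little within its fractions. Its values were 5.13 and 5.05 against 6.59, 6.57 and 6.57, a log2 ratio of -1.49 (SE 0.03, adjusted p = 0.00287, limma).
*Gsta4*, an alpha-class enzyme that conjugates the lipid peroxidation product hydroxynonenal, was at 4.04 and 3.89 against 5.58, 5.28 and 4.82 (log2 ratio -1.26, SE 0.26, adjusted p = 0.0493, limma). *Gstm7* had a log2 ratio of -1.08, *Gstt3* of -0.84 and *Gstm4* of -0.60. *Gstt3* was below 0.4 FPKM in both L1CAM-positive libraries (0.382 and 0.372) and at 2.31, 2.53 and 1.95 FPKM in L1CAM-negative ones. *Gsta4* and *Gstm4* passed with number 28 left out but with no other library left out, and *Gstm7* and *Gstt3* lost the call without either L1CAM-positive library.
The 2 soluble transferases with the highest mean did not pass the test, *Gstk1* of the mitochondrial and peroxisomal kappa class and *Gstm1*. *Gstk1* was at 5.73 and 5.52 in L1CAM-positive spheres and at 7.13, 7.21 and 6.33 in L1CAM-negative spheres (log2 ratio -1.26, adjusted p = 0.0823, limma). *Gstm1* was at 5.62 and 5.55 against 6.98, 6.81 and 6.05 (log2 ratio -1.03, adjusted p = 0.128, limma). In both genes number 28 lay between the other L1CAM-negative libraries and the L1CAM-positive ones, and both passed without it (log2 ratios of -1.54 and -1.31).

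In contrast, *Gstm6* and *Gstt1* were higher in L1CAM-positive spheres. *Gstm6*, which lies next to *Gstm7* in the mu-class cluster (NM_008184, chromosome 3 from 107938847 to 107953641), was weakly expressed. Its FPKM were 2.56 and 2.40 in L1CAM-positive spheres and 0.291, 0.236 and 0.367 in L1CAM-negative spheres. The log2 ratio was 0.96 (SE 0.03, adjusted p = 0.00373, limma). *Gstt1* of the theta class (chromosome 10 from 75783813 to 75798584) was at 3.87 and 3.65 against 2.92, 2.64 and 2.89, a log2 ratio of 0.94 (SE 0.14, adjusted p = 0.0225, limma). It did not pass without any 1 of the libraries. *Gstt2* and *Gstt3*, its neighbours on chromosome 10, were on the other side, *Gstt2* at 3.19 and 2.94 against 3.95, 3.73 and 3.60 (log2 ratio -0.70, adjusted p = 0.0535, limma, not passed).
Within the mu class on chromosome 3, *Gstm2*, *Gstm4* and *Gstm7* were thus lower and *Gstm6* was higher. *Gstm5*, at 6.10 and 6.04 against 5.74, 5.72 and 5.90, lay above all L1CAM-negative libraries in both L1CAM-positive ones but did not pass (log2 ratio 0.29, adjusted p = 0.0691, limma). *Gstp1* of the pi class, at 6.16 and 6.01 against 6.05, 6.01 and 5.90, overlapped between the fractions (log2 ratio 0.10, SE 0.07, adjusted p = 0.463, limma).
Closely related transferases can share reads. Of the 50-base windows of the *Gstp1* transcript, 62.3% also occurred in *Gstp2*, and 44.6% of those of *Gsta1* in *Gsta2* (89.7% in any other gene). For *Gstm2* and *Gstm6*, 9.4% and 11.8% of the windows occurred in any other gene, for *Gstm1* 23.1% and for *Gstt3* 26.0%. Of the 58 members, 40 shared no such window with another annotated gene. In 9 members over 20% of the windows were shared, among them *Gpx4* (68.9%), *Gstm3* (28.8%) and *Sod1* (23.1%). The values of these 9, which include *Gstp1*, *Gstp2*, *Gsta1* and *Gsta2*, are therefore uncertain.

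The microsomal glutathione transferases were all lower in L1CAM-positive spheres. *Mgst1*, a transferase and peroxidase of the endoplasmic reticulum and outer mitochondrial membrane (NM_019946, chromosome 6 from 138140527 to 138156755), had the highest level of all 58 members in each of the 5 libraries. It was at 448.2 and 428.6 FPKM in L1CAM-positive spheres and at 2130, 1677 and 1395 FPKM in L1CAM-negative spheres. On the log2 scale these are 8.78 ± 0.05 (SD, n = 2) against 10.74 ± 0.31 (SD, n = 3), a fold change of -1.96 (SE 0.22, adjusted p = 0.0141, limma). *Mgst1* alone made up 13.3% and 13.1% of the summed FPKM of the members in L1CAM-positive spheres and 31.6%, 27.9% and 25.4% in L1CAM-negative spheres.
*Mgst2*, which also makes leukotriene C4, was at 5.03 and 5.32 against 6.80, 6.64 and 6.18 (log2 ratio -1.37, SE 0.24, adjusted p = 0.0334, limma). *Mgst3* was at 4.63 and 4.79 against 6.06, 5.98 and 5.45 (log2 ratio -1.12, SE 0.23, adjusted p = 0.0481, limma). In all 3 genes number 28 was the lowest L1CAM-negative library and still above both L1CAM-positive ones. *Mgst1* did not pass without either L1CAM-positive library or L1CAM-negative number 31, and *Mgst2* and *Mgst3* passed with number 28 left out but with no other library left out.

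**Figure D2:**
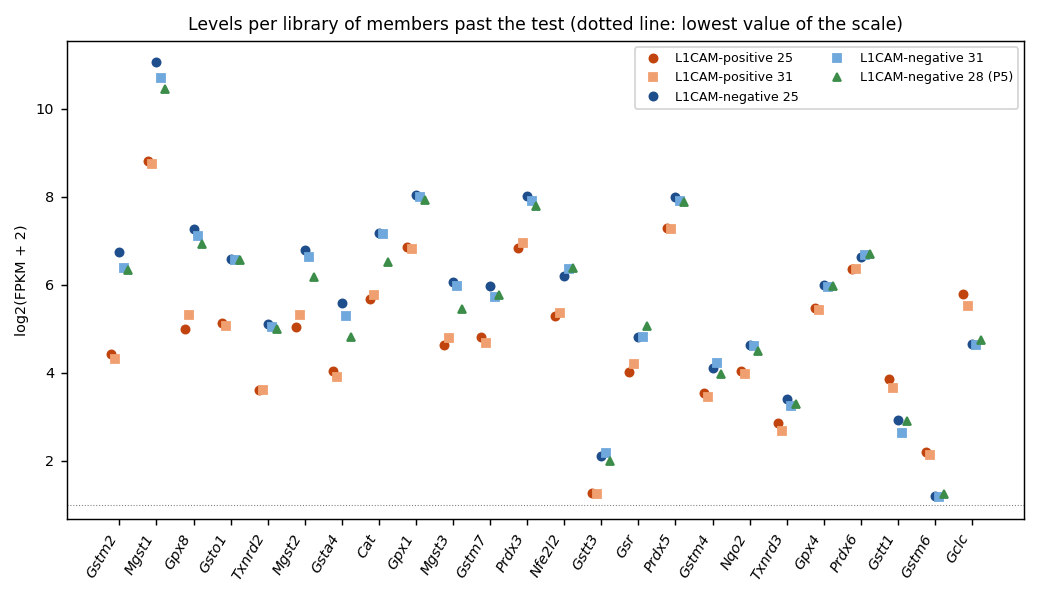
Level in each library of the 24 called members that reached 1 FPKM in at least 2 libraries, in log2(FPKM + 2), ordered by fold change. In every gene the L1CAM-positive libraries (orange) lie on 1 side of all L1CAM-negative libraries (blue, and green for P5), and *Mgst1* is the highest gene throughout.

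Of the 8 glutathione peroxidases, 3 were lower in L1CAM-positive spheres, 1 was higher and 4 did not pass. The lower ones were *Gpx1* and *Gpx4*, with selenocysteine, and *Gpx8*, with cysteine. *Gpx1*, the abundant cytosolic and mitochondrial peroxidase (NM_008160, chromosome 9 from 108339080 to 108340342), was at 6.86 and 6.82 in L1CAM-positive spheres and at 8.03, 8.00 and 7.94 in L1CAM-negative spheres. Its log2 ratio was -1.15 (SE 0.04, adjusted p = 0.00373, limma). *Gpx4*, which reduces lipid hydroperoxides in membranes and restrains ferroptosis, changed less. It was at 5.48 and 5.42 against 5.99, 5.94 and 5.97, a log2 ratio of -0.51 (SE 0.03, adjusted p = 0.00530, limma), but 68.9% of its 50-base windows also occur in an annotated pseudogene. *Gpx8*, which carries cysteine (NM_027127, chromosome 13 from 113042757 to 113046430), had the largest change of a called peroxidase. It was at 4.99 and 5.31 against 7.26, 7.12 and 6.94, a log2 ratio of -1.96 (SE 0.16, adjusted p = 0.00776, limma).
*Gpx7*, its relative in the endoplasmic reticulum, was at 3.94 and 4.23 against 5.23, 5.52 and 4.81 (log2 ratio -1.10, adjusted p = 0.0646, limma, not passed). *Gpx3*, the secreted peroxidase of plasma, had a log2 ratio of -2.39, which was larger than that of *Gstm2*, and did not pass either (SE 0.61, adjusted p = 0.0772, limma). Its FPKM were 17.6 and 30.7 in L1CAM-positive spheres, 92.3 and 93.1 in L1CAM-negative numbers 25 and 31, and 255.1 in number 28, the P5 library. *Gpx3* and *Sod3* were described at length after their values were seen. *Gpx5* and *Gpx6* reached at most 0.0946 and 0.206 FPKM. *Gpx2*, a peroxidase known from the gut epithelium, is listed at 0 in all L1CAM-negative libraries and at 0.0980 and 0.137 FPKM in L1CAM-positive ones. The test called it (adjusted p = 0.0131, limma) on a difference of 0.08, and it dropped out of the genes tested where 1 FPKM was required.
Of the 7 members with an in-frame TGA, named above, 4 were lower (*Gpx1*, *Gpx4*, *Txnrd2* and *Txnrd3*), 1 was higher (*Gpx2*) and 2 did not pass. Of the other 51 members 17 were lower. Over all genes tested, 10.0% were lower and 11.6% higher.

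Peroxiredoxins were among the most abundant members in both fractions, and of the 7 genes with sulfiredoxin 3 were lower in L1CAM-positive spheres and none was higher. *Prdx3*, the peroxiredoxin of the mitochondrial matrix (NM_007452, chromosome 19 from 60864066 to 60874538), had the largest change of the family. It was at 6.84 and 6.94 in L1CAM-positive spheres and at 8.02, 7.91 and 7.79 in L1CAM-negative ones, which gave a log2 ratio of -1.01 (SE 0.09, adjusted p = 0.00859, limma). *Prdx5*, found in mitochondria, peroxisomes and cytosol, was at 7.30 and 7.26 against 8.01, 7.91 and 7.88 (log2 ratio -0.65, SE 0.05, adjusted p = 0.00744, limma). *Prdx6*, whose product uses glutathione rather than thioredoxin and has a single reactive cysteine, was at 6.36 in both L1CAM-positive libraries against 6.62, 6.68 and 6.71. This was a small but even difference of -0.31 (SE 0.03, adjusted p = 0.0119, limma). *Prdx3* and *Prdx5* did not pass without either L1CAM-positive library, and *Prdx6* passed only without L1CAM-negative number 25 or number 28.
*Prdx2* and *Prdx1*, cytosolic enzymes, had the highest mean of the family. *Prdx2* was at 8.72 and 8.50 in L1CAM-positive spheres against 8.28, 8.24 and 8.18, with both L1CAM-positive libraries above all L1CAM-negative ones. Its log2 ratio of 0.38 (SE 0.09) did not pass the test (adjusted p = 0.0595, limma) and passed in none of the 17 alternatives. *Prdx1* was at 7.56 and 7.44 against 7.98, 7.83 and 7.79 (log2 ratio -0.37, adjusted p = 0.0572, limma, not passed). *Prdx4* of the endoplasmic reticulum overlapped between the fractions, at 6.44 and 6.73 against 6.63, 6.75 and 5.80. So did *Srxn1*, the sulfiredoxin that repairs overoxidized peroxiredoxins, at 5.42 and 5.63 against 5.27, 5.18 and 5.65.
In L1CAM-positive spheres *Mgst1* at 8.78 ± 0.05, *Prdx2* at 8.61 ± 0.15, *Sod1* at 8.35 ± 0.12 (SD, n = 2 each) led the order of levels, with neighbours about as far apart as their spread. In L1CAM-negative spheres *Mgst1* at 10.74 ± 0.31 stood clear of *Sod1* at 8.83 ± 0.38, and *Prdx2* followed at 8.23 ± 0.05 (SD, n = 3 each).

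In the thioredoxin system the mitochondrial reductase differed and the cytosolic one did not pass the test. *Txnrd2*, the mitochondrial thioredoxin reductase (NM_013711, chromosome 16 from 18426417 to 18479073), was at 3.60 in both L1CAM-positive libraries and at 5.11, 5.03 and 4.98 in L1CAM-negative ones. The log2 ratio was -1.44 (SE 0.05, adjusted p = 0.00371, limma), and it passed without any 1 of the libraries. *Txnrd3*, best known from testis, was at 2.86 and 2.67 against 3.41, 3.25 and 3.28 (log2 ratio -0.54, SE 0.10, adjusted p = 0.0385, limma) and did not pass without any 1 of the libraries. *Txnrd1*, the cytosolic reductase, was at 5.80 and 5.59 against 5.42, 5.61 and 5.69, with overlapping fractions (log2 ratio 0.12, SE 0.12, adjusted p = 0.595, limma).
Of the thioredoxins themselves, *Txn1* of the cytosol was at 7.83 and 7.87 against 8.17, 8.07 and 7.99 (log2 ratio -0.23, adjusted p = 0.102, limma). *Txn2* of the mitochondria was at 6.83 and 6.85 against 7.27, 7.11 and 7.08 (log2 ratio -0.31, adjusted p = 0.0601, limma). Both lay below all L1CAM-negative libraries in both L1CAM-positive ones, without passing.

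*Cat*, the peroxisomal catalase (NM_009804, chromosome 2 from 103453904 to 103485153), was lower in L1CAM-positive spheres and the superoxide dismutases did not pass. *Cat* was at 5.68 and 5.76 in L1CAM-positive spheres and at 7.17, 7.16 and 6.51 in L1CAM-negative spheres. Its log2 ratio was -1.22 (SE 0.26), just inside the threshold (adjusted p = 0.0497, limma), and with 1 library left out it passed only without number 28. *Sod1*, the cytosolic copper-zinc enzyme, was at 8.43 and 8.26 against 9.14, 8.94 and 8.40, so that number 28 fell between the L1CAM-positive libraries (log2 ratio -0.48, adjusted p = 0.322, limma). *Sod2*, the mitochondrial manganese enzyme, was at 5.67 and 5.56 against 5.60, 5.69 and 5.99 (log2 ratio -0.14, SE 0.14, adjusted p = 0.608, limma). *Sod3*, the extracellular enzyme, was at 41.5 and 29.3 FPKM in L1CAM-positive spheres and at 92.5, 76.1 and 186.9 FPKM in L1CAM-negative spheres, again with the highest value in number 28 (log2 ratio -1.60, SE 0.48, adjusted p = 0.107, limma).

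*Nfe2l2*, the gene of NRF2 (NM_010902, chromosome 2 from 75675513 to 75704663), was itself lower in L1CAM-positive spheres. It was at 5.30 and 5.35 against 6.20, 6.37 and 6.37, a log2 ratio of -0.99 (SE 0.07, adjusted p = 0.00667, limma), and passed unless L1CAM-positive number 25 was left out. *Nqo2*, a quinone reductase, was at 4.04 and 3.97 against 4.62, 4.62 and 4.49 (log2 ratio -0.57, SE 0.06, adjusted p = 0.0129, limma), and with 1 library left out it passed only when that was number 28. Its relative *Nqo1*, a classical NRF2 target, was at 3.58 and 3.20 against 4.63, 4.39 and 4.10, below all L1CAM-negative libraries but not past the test (log2 ratio -0.98, SE 0.22, adjusted p = 0.0594, limma).
*Hmox2*, the constitutive heme oxygenase, was at 5.71 and 5.67 against 5.85, 5.93 and 5.83 (log2 ratio -0.18, adjusted p = 0.0619, limma). *Hmox1*, the inducible one, chosen after its values were seen, differed within the L1CAM-positive fraction. It was at 5.04 in number 25 and at 5.83 in number 31, where the L1CAM-negative libraries were all between 5.81 and 5.86 (log2 ratio -0.41, SE 0.27, adjusted p = 0.406, limma).

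The core of the antioxidant response element bound by NRF2 with small MAF proteins, TGACNNNGC, was sought on both strands in the 250 bases before each gene's start in RefSeq promoters of GRCm38.p6. Of the 58 members, 51 were matched to a promoter, and 9 of these held the letters (17.6%), against 11.5% of all 27025 genes with a promoter. Some genes have several promoters. Counted by promoter, 9 of 68 held the letters in the members, against 10.2% of all 32851 promoters. The 9 genes are *Mgst1*, *Gstm7* and *Nfe2l2*, which were lower, and *Gclm*, *Gsta3*, *Gstm5*, *Prdx1*, *Sod1* and *Txnrd1*, which did not pass the test. The sites of the 3 lower genes are shown on the strand of the gene, with the match in capitals, at chr6:138140456-138140494 (plus strand), chr3:107931720-107931758 (minus strand) and chr2:75704880-75704913 (minus strand). In *Mgst1* the match reads as its complement, GCNNNGTCA.
Mgst1: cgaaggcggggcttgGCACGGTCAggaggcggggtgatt
Gstm7: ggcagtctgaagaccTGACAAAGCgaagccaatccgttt
Nfe2l2: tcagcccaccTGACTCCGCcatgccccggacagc
A match to these letters is a description of the window and does not show binding.

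Summed over their members, the classes differed between the fractions by unequal factors. The microsomal transferases summed to 501.6 and 492.0 FPKM in L1CAM-positive spheres and to 2304, 1836 and 1507 FPKM in L1CAM-negative numbers 25, 31 and 28. Within number 25 the L1CAM-negative sum was 4.59 times the L1CAM-positive one, and within number 31 3.73 times. For the glutathione peroxidases these ratios were 2.76 and 2.47, for the soluble transferases 1.94 and 1.93, and for the dismutases with catalase 1.75 and 1.75. For NRF2 with the quinone reductases and heme oxygenases they were 1.595 and 1.447. For the peroxiredoxins they were 1.21 and 1.20, for the thioredoxin system 1.28 and 1.20, and for glutathione synthesis and reduction 0.88 and 0.93. All 58 genes together summed to 3382 and 3264 FPKM against 6747, 6006 and 5494 FPKM, and without *Mgst1* to 2934 and 2835 FPKM against 4617, 4329 and 4099 FPKM. The peroxiredoxins took 31.9% and 31.7% of the members' sum in L1CAM-positive spheres and between 19.3% and 21.2% in L1CAM-negative spheres. The cortex markers, whose sums are given above, were higher in L1CAM-negative spheres in both numbers. The part of cortical cells in the class sums was not tested.

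**Figure D3:**
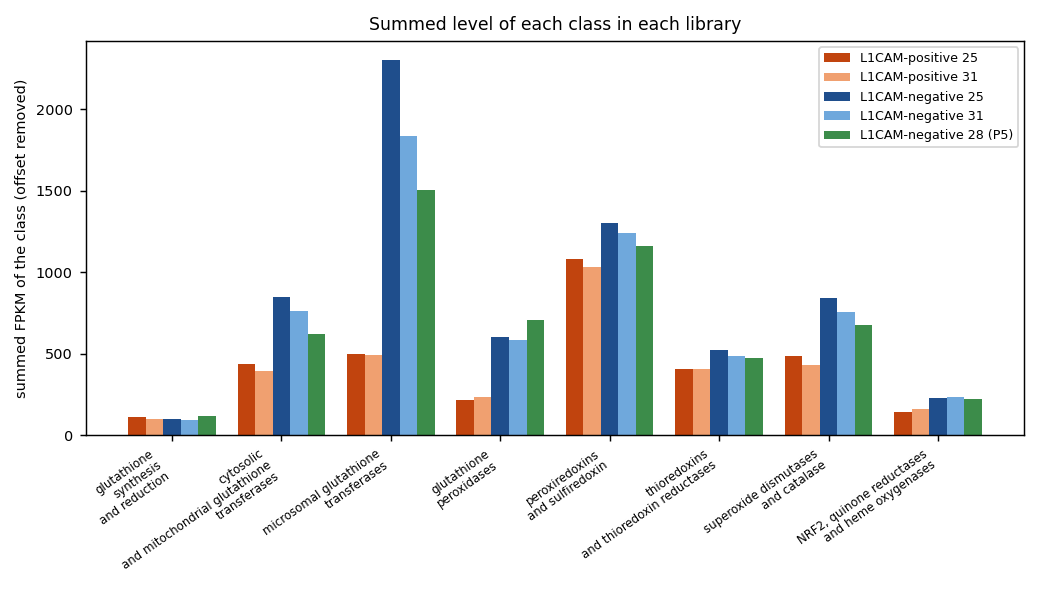
Summed FPKM of each class (offset removed) in each of the 5 libraries. The microsomal transferases reach 1507 to 2304 FPKM in L1CAM-negative and about 500 FPKM in L1CAM-positive libraries (501.6 and 492.0), whereas the synthesis class stays between 94.06 and 121.5 FPKM in all of them.

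The differences between the fractions were alike in both numbers, which share no library. Of the 52 members at 1 FPKM or more, 41 were lower in L1CAM-positive spheres in both number 25 and number 31, 9 were higher in both, and 2 (*Sod2* and *Txnrd1*) had opposite signs. This count and those that follow were not made over all genes, so they may not be particular to the members. The difference in number 25 and that in number 31 lay a median of 0.12 apart on the log2 scale, and 0.79 apart in *Hmox1*, the gene where they differed most. Within the L1CAM-positive fraction, 50 of the 52 members differed by 0.5 or less between numbers 25 and 31, with *Hmox1* (0.80 higher in number 31) and *Gpx3* (0.74 higher in number 31) as the exceptions. Within the L1CAM-negative fraction 51 did so, the exception being *Gsta3* (-0.53).
Number 28, the P5 library, stood further off. Against the mean of the other L1CAM-negative libraries, *Gpx3* was 1.44 and *Sod3* 1.14 higher, both genes of secreted enzymes, and *Gss* was 0.52 higher. In that library 10 members were lower by more than 0.5, among them *Prdx4* (-0.88), *Gstm1* (-0.85), *Gstk1* (-0.84), *Cat* (-0.65) and *Sod1* (-0.64). With 1 library at P5, these differences have no replicate check, and the age and the library cannot be told apart. Such differences were not counted over all genes. Among the L1CAM-negative libraries, number 28 had the lowest sums of chromaffin markers (126.1 FPKM against 510.4 and 539.6 in numbers 25 and 31), cortex markers (8088 against 12920 and 9125), macrophage markers (120.9 against 175.8 and 417.2) and fibroblast and capsule markers (3939 against 5756 and 4309). It had the highest sums of endothelial markers (368.6 against 193.2 and 193.4) and glial markers (10.41 against 3.359 and 7.047). The part of these cells in the values was not tested.

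**Figure D4:**
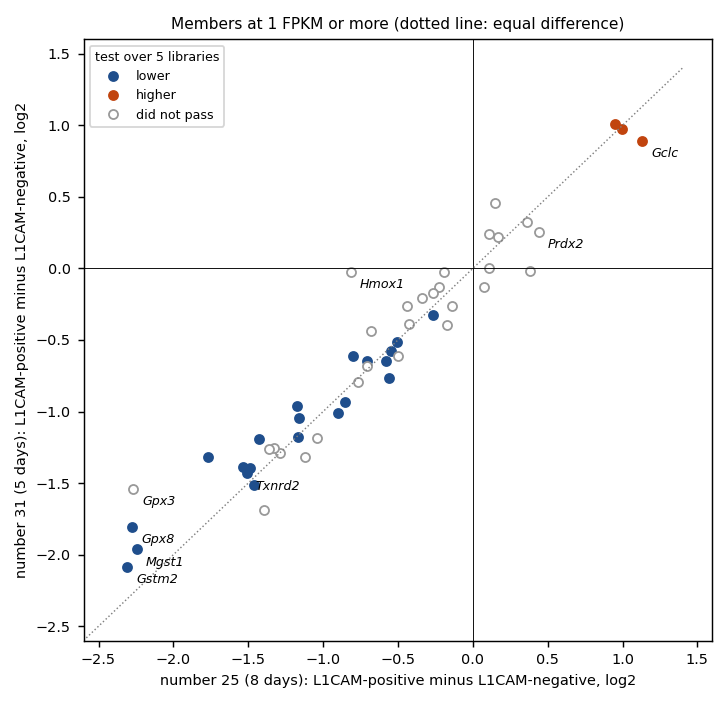
Difference between L1CAM-positive and L1CAM-negative spheres in number 25 (horizontal) and number 31 (vertical), in log2 units, for the 52 members at 1 FPKM or more in 2 or more libraries. Points follow the line of equal difference, and *Hmox1* lies 0.79 off it.

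Genes around the members, from 7 lists of 91 genes, were compared in the same fit. Of these, 24 were lower (26.4%, against 10.0% of all genes) and 8 were higher (8.8%, against 11.6%) in L1CAM-positive spheres. The median log2 ratio was -0.35 (0.00 for all genes). Among genes at 1 FPKM or more in 2 or more libraries, 37 of the related genes were lower and 10 higher. Of all 14091 genes there, 22.4% were lower and 21.2% higher. How many of the 91 met this filter is not given. The shares of all genes in each fit that left out 1 library are given with the members above. Leaving out L1CAM-positive number 25 or 31 gave 4 and 5 lower genes, leaving out L1CAM-negative number 25 or 31 gave 12 and 12, and leaving out number 28 gave 36. The higher genes then numbered 2, 2, 2, 1 and 6 in that order. Of the called genes named from these lists, *Ggt5*, *Ggt7*, *Msrb1* and *Msrb3* passed whichever library was left out, *Keap1*, *Chac1* and *Slc25a39* in no such fit, and the others lost the call at least without either L1CAM-positive library.
Of 11 genes that supply NADPH, the reductant of both systems, 4 were lower (36.4%) and none was higher, at a median of -0.33. *Idh1*, cytosolic isocitrate dehydrogenase, was at 7.95 and 7.88 against 9.72, 9.32 and 9.07 (log2 ratio -1.46, adjusted p = 0.0258, limma) and *Nadk*, which makes NADP, had -0.99 (adjusted p = 0.0472). *Me1*, malic enzyme, had a log2 ratio of -1.11 and did not pass (adjusted p = 0.102). *Nnt*, the mitochondrial transhydrogenase in which the C57BL/6J substrain is known to carry a deletion, was singled out after its values were seen. It was near the floor in all libraries, at 0.792 and 0.329 FPKM in L1CAM-positive spheres and at 0.882, 0.639 and 1.52 FPKM in L1CAM-negative spheres. The labels name no substrain, the deletion was not examined, and the cause of these low values was not tested.

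Of 21 regulators and targets of NRF2 outside the members, 6 were lower (28.6%) and 1 was higher (4.8%), at a median of -0.57. Over all genes these shares were 10.0% and 11.6%. *Keap1*, the adaptor that delivers NRF2 for degradation, was higher in L1CAM-positive spheres, at 4.44 and 4.16 against 3.44, 3.71 and 3.58 (log2 ratio 0.72, SE 0.13, adjusted p = 0.0381, limma). *Osgin1* had a log2 ratio of -1.90 (adjusted p = 0.0234) and *Aox1*, aldehyde oxidase, of -1.49 (adjusted p = 0.0117). The most abundant of the list, *Sqstm1* and *Slc3a2*, were at 0.02 and 0.10 and did not pass.
Of 17 genes of glutathione turnover and use, 5 were higher and 5 were lower (29.4% each), at a median of -0.09. *Ggt7* of the gamma-glutamyltransferase family was higher, at 4.94 and 4.70 against 3.50, 3.53 and 3.66 (log2 ratio 1.25, adjusted p = 0.00785, limma), and so was *Chac1*, which degrades glutathione in the cytosol (log2 ratio 1.39, adjusted p = 0.0458). *Ggt5*, which cleaves extracellular glutathione and leukotriene C4, was lower, at 3.37 and 3.24 against 4.79, 5.01 and 4.95 (log2 ratio -1.61, adjusted p = 0.00521), as was *Ggct* (log2 ratio -0.87, adjusted p = 0.00767). *Slc25a39*, which brings glutathione into mitochondria, was higher by 0.32 (adjusted p = 0.0337), and *Adh5* did not pass (-0.76, adjusted p = 0.0659).

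**Figure D5:**
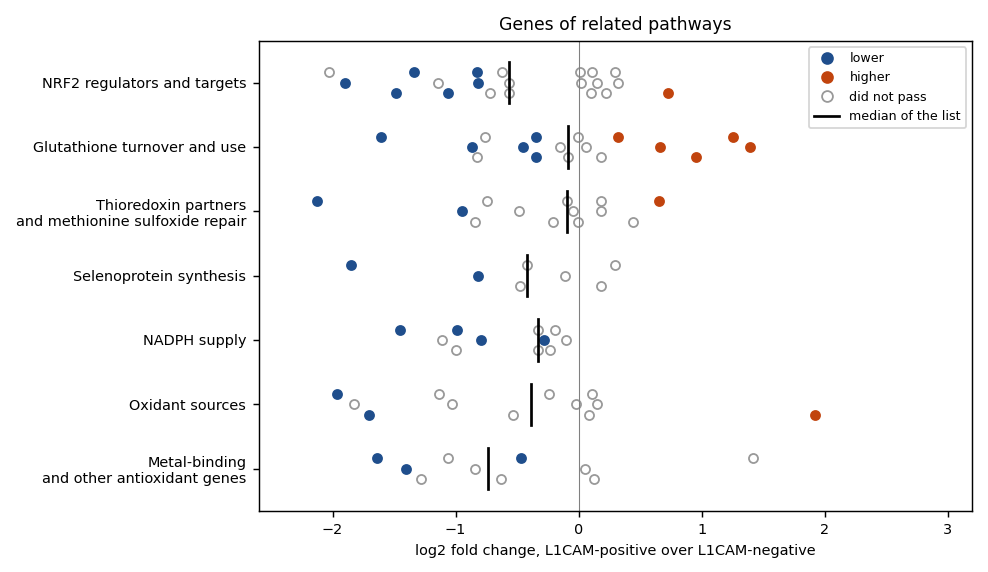
Log2 ratio, L1CAM-positive over L1CAM-negative spheres, of the 91 genes of 7 related lists, with the median of each list as a bar and filled points for genes past the test. Glutathione turnover has 5 genes on each side, and in NADPH supply 4 genes are lower and none is higher.

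Of 13 thioredoxin partners and methionine sulfoxide reductases, 2 were lower (15.4%) and 1 was higher (7.7%), at a median of -0.09. Over all genes, 10.0% were lower and 11.6% higher, which is near these shares. *Msrb3* of the endoplasmic reticulum and mitochondria was at 3.97 and 3.68 against 6.02, 5.88 and 5.96 (log2 ratio -2.13, SE 0.11, adjusted p = 0.00476, limma). *Msrb1*, a selenoprotein, had a log2 ratio of -0.95 (adjusted p = 0.00537) and *Sesn1*, a sestrin, of 0.66 (adjusted p = 0.0276). *Txndc5* (-0.84) and *Txnip* (0.18), the most abundant of the list, did not pass.
Of 7 genes of selenoprotein synthesis and supply, 2 were lower (28.6%) and none was higher, at a median of -0.42. *Selenop*, the secreted carrier of selenium, was at 6.53 and 6.54 against 8.62, 8.51 and 8.03 (log2 ratio -1.85, adjusted p = 0.0141, limma), and *Sephs2*, which makes selenophosphate, had -0.82 (adjusted p = 0.0160).
Of 12 sources of superoxide or hydrogen peroxide, 2 were lower (16.7%) and 1 was higher (8.3%), at a median of -0.38. These shares lie near those of all genes, 10.0% lower and 11.6% higher. *Maob*, monoamine oxidase B, was higher in L1CAM-positive spheres, at 5.62 and 5.26 against 3.80, 3.58 and 3.19 (log2 ratio 1.92, SE 0.24, adjusted p = 0.0167, limma). *Maoa* overlapped between the fractions (5.93 and 5.75 against 6.24, 5.72 and 5.32). *Cybb* and *Cyba*, subunits of the phagocyte NADPH oxidase, had log2 ratios of -1.96 (adjusted p = 0.0472) and -1.70 (adjusted p = 0.0142). The macrophage markers had a summed FPKM of 22.44 and 31.83 against 175.8, 417.2 and 120.9 in numbers 25, 31 and 28. *Cybb* was highest in number 31 of the L1CAM-negative spheres. The part of macrophages in the values of *Cybb* and *Cyba* was not tested.
Of 10 metal-binding and other antioxidant genes, 3 were lower (30.0%) and none was higher, at a median of -0.74. *Aifm2*, a suppressor of ferroptosis that reduces ubiquinone, was at 5.11 and 4.90 against 6.80, 6.42 and 6.72 (log2 ratio -1.64, SE 0.15, adjusted p = 0.00989, limma), and *Pon2*, a paraoxonase, had -1.41 (adjusted p = 0.00868). *Fth1*, the heavy chain of ferritin, with -1.06 (adjusted p = 0.113), and *Mt1*, a metallothionein, with -0.84 (adjusted p = 0.327), had the highest means and did not pass.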

How the data were processed

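RNA from 5 libraries was sequenced with a strand-specific kit. Per the labels and methods, the authors used STAR 2.6.1a for alignment (mm10), Cufflinks for FPKM and limma for quantile normalization, and the deposited FPKM values are in log2 units (lowest 1, highest 17.6). An offset of 2 was inferred, the annotation release is not given in the sources used here, and the depth is unknown, so no counting interval was computed. Of 32737 transcripts, 202 without a symbol were left out, and the transcript with the highest mean was kept per symbol. The fractions were compared with limma 3.58.1 in R 4.3.3 (eBayes, trend option), 2-sided, adjusted by Benjamini-Hochberg over all 23903 genes, and checked on simulated data. The members and lists were chosen with earlier results of these data known. Full values are given for called members and, per class, the 2 of highest mean, and from each related list for up to 2 called genes in each direction and the 2 with the highest mean. Others with values were chosen after these were seen. Shared windows and coding sequences come from GENCODE M21, and coordinates and promoters from RefSeq (GRCm38.p6). The 17 alternatives covered pseudocounts (0.1 and 5), filters, summed transcripts, normalization, variance models, a block, the culture period, mRNA only and leaving out each library. Python 3.11.15 and pandas 2.3.3 served for the tables.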

Additional observations from a re-analysis of the deposited data

Results flagged for a closer look

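The L1CAM-positive minus L1CAM-negative difference of *Sod2* (log2) was 0.072 in number 25 (8 days of culture) and -0.13 in number 31 (5 days). That of *Txnrd1* was 0.38 in number 25 and -0.020 in number 31. Each sign rests on 1 library per fraction, and the difference between the numbers was not tested.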

How the results depend on the processing

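With limma's robust variance estimate, 4 members were lower (*Gpx8*, *Gstm2*, *Gsto1* and *Txnrd2*) and 0 higher, where 31 members had an unadjusted p under 0.05, and of the related genes 4 were lower and 1 higher. With the culture period as a term, 12 members were lower and 4 higher, and of the related genes 11 were lower and 4 higher. With the replicate number as a block, which leaves 1 residual degree of freedom, limma called 0 members and 0 related genes in either direction and 0 of all 23903 genes, whereas 39 members and 8417 genes had an unadjusted p under 0.05 and the smallest adjusted p of a member was 0.0630. The numbers are shared by 2 pairs only and the labels do not say what they mark. The deviations of same-numbered libraries from their group means correlated by 0.15 (number 25) and 0.12 (number 31) across 16032 genes, which are not independent. Without genes at the floor in every library, 29 members were lower and 4 higher, against 15.1% and 15.9% of the 19549 genes then tested. With 1 FPKM required, 31 members were lower and 3 higher, against 22.4% and 21.2% of 14091 genes. There, 37 related genes were lower and 10 higher. Leaving out each library gave 6 to 23 lower and 1 to 4 higher members, and 4 to 36 lower and 1 to 6 higher related genes. With 1 L1CAM-positive library left, its spread was assumed to equal that of the other fraction. Of 1377 values of single genes, 11 reversed, all of genes that did not pass. *Prdx4* was at -0.11 with the block, to which number 28 adds nothing, and between -0.11 and 0.36 with 1 library left out. *Maoa* was at -0.14 with the block and between -0.14 and 0.32 with 1 library left out, and *Txnip* at -0.18 and between -0.18 and 0.39. These 3 genes were negative without number 28, and *Maoa* (-0.01) and *Txnip* (-0.03) also without L1CAM-positive number 25. *Sqstm1* was at -0.030 with summed transcripts and between -0.10 and 0.13 with 1 library left out, -0.06 being the value without L1CAM-negative number 31. The cause of these changes was not tested.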
